A study of Rattus norvegicus with 4 samples.

Results

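The genes described here are 10 members of the antioxidant programme of NRF2: Nqo1, Gstp1, Sqstm1, Gclc, Gclm, Txnrd1, Srxn1, Hmox1, Slc7a11 and Nfe2l2, which encodes NRF2 itself. They were picked by symbol from the 32753 genes of each expression table, and all 10 symbols matched a single row. The choice was made with the difference between genotypes in these data known, so that difference is described for the members and not tested as evidence. RNA-seq was run on day 4 rat embryoid bodies, which are aggregates of differentiating pluripotent cells, grown from Kcnh2-/- or wild-type (WT) embryonic stem cells of strain DASD, with 2 libraries per genotype. Both genotypes had the same culture: hanging drops of 20 µl for 2 days with CHIR9902 at 0.75 µM, the MEK inhibitor PD0325901 at 0.1 µM and the ROCK inhibitor Y27632 at 10 µM, then laminin-coated plates for 24 hours with CHIR9902 and PD0325901, then DM medium for 1 day. The labels do not give the altered part of Kcnh2, the number of lines or clones, or whether replicates were separate cultures, so the spread between replicates may be technical.

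NRF2 is a transcription factor that is held in the cytoplasm by KEAP1 and degraded through a CUL3 ubiquitin ligase. Oxidants and electrophiles modify KEAP1, NRF2 then accumulates, pairs with a small MAF protein and binds antioxidant response elements near genes for glutathione supply, thioredoxin recycling, quinone reduction and haem breakdown. The p62 protein made from Sqstm1 also binds KEAP1 and is itself encoded by an NRF2 target.

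The core letters of the antioxidant response element were looked for first in the promoters, since they are the feature that links the list to NRF2. The members were picked as NRF2 targets, so a raised share among them is not independent of that choice. Windows from RefSeq (build GRCr8) cover 250 bases before to 50 bases after the annotated transcription start, and 9 of the 10 genes had one; Hmox1 did not. The letters TGACNNNGC were searched on both strands. They occurred in the windows of 4 of these 9 genes (44.4%), against 13.1% of the 27457 genes with a window. In the list of other NRF2 target genes described below, 6 of 18 genes with a window held them (33.3%). In the other lists described below the shares were 7.69% for NRF2 regulators, 0 of 14 for glutathione enzymes, 35.3% for glutathione S-transferases, 33.3% for the thioredoxin system, 18.2% for haem and iron, 26.7% for ATF4 targets and 15.4% for autophagy genes, and none of these was tested. The 4 windows with a match are printed from 5′ to 3′ on the gene's strand, with the matching letters in capitals. They are chr1:210769656-210769955 (minus strand) for Gstp1, chr2:213031885-213032184 (plus) for Gclm, chr7:22755855-22756154 (minus) for Txnrd1 and chr3:81028950-81029249 (minus) for Nfe2l2.
Gstp1: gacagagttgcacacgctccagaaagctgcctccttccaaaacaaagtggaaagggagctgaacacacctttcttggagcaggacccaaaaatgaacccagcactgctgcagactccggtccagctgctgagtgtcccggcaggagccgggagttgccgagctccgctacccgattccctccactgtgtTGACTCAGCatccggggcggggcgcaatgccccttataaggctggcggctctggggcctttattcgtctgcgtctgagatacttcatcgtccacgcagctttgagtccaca
Gclm: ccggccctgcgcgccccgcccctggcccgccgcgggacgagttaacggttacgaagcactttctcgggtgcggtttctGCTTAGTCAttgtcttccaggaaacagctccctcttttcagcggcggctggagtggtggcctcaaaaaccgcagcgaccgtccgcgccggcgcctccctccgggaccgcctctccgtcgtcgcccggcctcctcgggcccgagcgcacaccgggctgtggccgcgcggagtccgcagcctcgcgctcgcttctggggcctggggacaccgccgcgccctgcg
Txnrd1: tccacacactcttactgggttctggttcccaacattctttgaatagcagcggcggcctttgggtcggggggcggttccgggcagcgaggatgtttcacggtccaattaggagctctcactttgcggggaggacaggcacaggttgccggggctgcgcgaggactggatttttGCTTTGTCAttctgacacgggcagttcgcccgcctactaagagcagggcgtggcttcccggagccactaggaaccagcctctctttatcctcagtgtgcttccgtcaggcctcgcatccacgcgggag
Nfe2l2: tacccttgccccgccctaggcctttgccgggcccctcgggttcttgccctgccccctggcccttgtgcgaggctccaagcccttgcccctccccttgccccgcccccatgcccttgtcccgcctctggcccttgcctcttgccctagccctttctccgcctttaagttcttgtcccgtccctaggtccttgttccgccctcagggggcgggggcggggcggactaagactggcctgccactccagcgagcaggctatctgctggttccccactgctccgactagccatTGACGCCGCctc
In Gstp1 the match begins 61 bases before the start (first base at -61) and reads TGACTCAGC on the gene's strand. In Gclm it begins at -172 and in Txnrd1 at -78, both on the opposite strand, where they read TGACTAAGC and TGACAAAGC. In Nfe2l2 it begins at 39 bases after the start and reads TGACGCCGC. Txnrd1 has 2 annotated starts and only the window shown held a match. No match was found in the windows of Nqo1, Sqstm1, Gclc, Srxn1 or Slc7a11, which says nothing of sites farther away or of variant letters. The Srxn1 window held TGAGTCAGC, with G in place of the C of TGAC, which the search did not count. A match describes letters and is not a measured binding site.

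Expression is given as RPKM, reads scaled by transcript length and by the number of mapped reads, so levels can be compared between genes. Read depth is unknown. Between 17610 and 17833 genes were above 0 in each library. The RPKM sums were 1.09e+08 and 8.93e+06 in Kcnh2-/- replicates 1 and 2 and 7.95e+07 and 1.17e+07 in WT replicates 1 and 2, so this library property followed the replicate number, which the labels do not tie to any batch. The sums over protein-coding genes alone did not follow it, at 588638 and 865709 in Kcnh2-/- and 1.02e+06 and 712153 in WT. Differences within each number are given beside the pooled ones. Kcnh2, which encodes a voltage-gated potassium channel, was at 0.108 and 0.504 RPKM in Kcnh2-/- and at 2.61 and 1.45 RPKM in WT (limma adjusted p = 0.980). Over the 12355 genes that reached 1 RPKM in 2 or more libraries, limma called 14 genes (0.113%) at an adjusted p under 0.05, of which 4 were higher (0.0324%) and 10 lower (0.0809%) in Kcnh2-/-, and 418 genes had an unadjusted p under 0.05.

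Nqo1, Gstp1, Sqstm1, Gclc, Txnrd1, Hmox1 and Slc7a11 had both Kcnh2-/- libraries above both WT libraries, 7 of the 10 genes, while Gclm, Srxn1 and Nfe2l2 overlapped between genotypes. Of the 10 genes, 9 passed the filter on low values and Slc7a11 did not. Both Kcnh2-/- libraries were above both WT libraries in 6 of these 9 and in 16.7% of all genes tested. None of the 9 passed the limma threshold and 1, Sqstm1, had an unadjusted p under 0.05. Their median difference in log2(RPKM + 1), Kcnh2-/- minus WT, was 1.08, beside 0.0052 over all genes tested. The median of the 9 moved with the library left out: it was 0.38 without WT replicate 1 and 1.76 without WT replicate 2. It was 1.38 without Kcnh2-/- replicate 1 and 0.81 without Kcnh2-/- replicate 2. Each such fit also leaves the replicate numbers uneven between genotypes. With the replicate number as a term and protein-coding genes only, limma called 3 of the 9 higher (Nqo1, Gstp1 and Sqstm1), beside 0.525% of the genes in that fit. With that term over all 12355 genes it called 0 of the 9 (adjusted p of 0.143 for Nqo1, 0.264 for Gstp1 and 0.186 for Sqstm1), beside 0.113% called higher. With protein-coding genes only and no such term it called 0 of the 9 and 0% of all genes higher. The labels do not state that the numbers pair the libraries, and with that term little is left to estimate each gene's own spread. An exact permutation test of 2 libraries against 2 cannot go below p = 0.333.

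**Figure D1:**
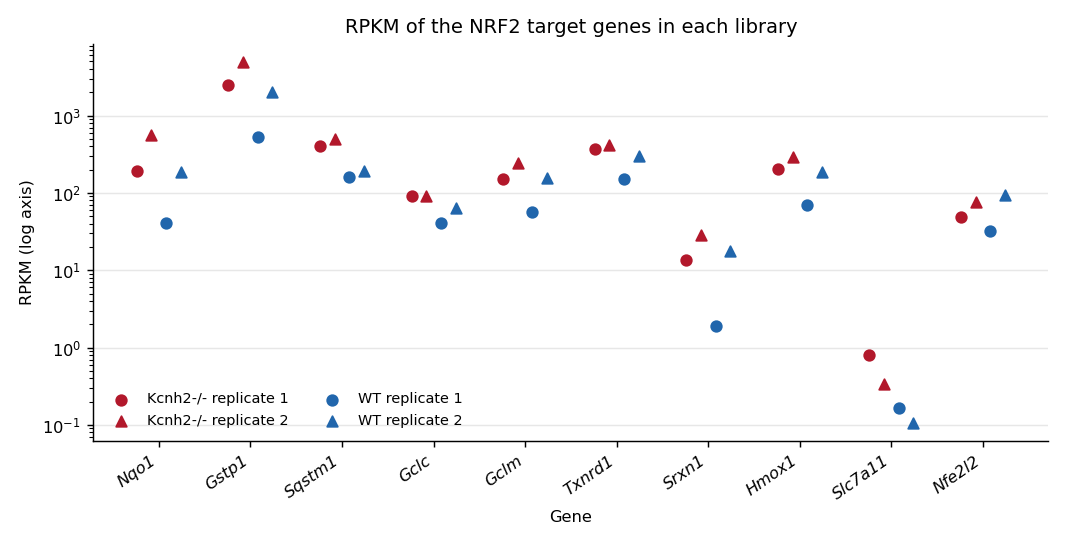
RPKM (log axis) of the 10 NRF2 target genes in each of the 4 libraries, with Kcnh2-/- in red to the left of WT in blue, circles for replicate 1 and triangles for replicate 2. WT replicate 1 is the lowest point for 9 of the 10 genes, and Kcnh2-/- replicate 2 is the highest for 8.

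Nqo1 encodes a cytosolic quinone reductase and is a standard readout of NRF2 activity (rn6 chromosome 19, 38422163 to 38437180). It was at 191 and 554 RPKM in Kcnh2-/- replicates 1 and 2, against 40.4 and 189 RPKM in WT replicates 1 and 2. Both Kcnh2-/- libraries were above both WT libraries, but Kcnh2-/- replicate 1 exceeded WT replicate 2 by a ratio of only 1.01. The mean was 372.5 ± 257 RPKM in Kcnh2-/- and 114.7 ± 105 RPKM in WT (SD, n = 2 each), a ratio of 3.25. The difference in log2(RPKM + 1), a scale that shrinks changes of weakly expressed genes, was 1.88 ± 0.92 (SE), with 2.21 within replicate 1 and 1.55 within replicate 2. Without WT replicate 1 it was 0.78.

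Gstp1, the pi-class glutathione S-transferase that conjugates electrophiles to glutathione, had the highest level of the 10 genes (chromosome 1, 219291678 to 219294147). It was at 2485 and 4924 RPKM in Kcnh2-/-, against 536 and 2006 RPKM in WT. The libraries fell in the same order as for Nqo1, with WT replicate 1 at 26.7% of the next lowest library. Its log2 difference was 1.75 ± 0.82 (SE), with 2.21 within replicate 1 and 1.29 within replicate 2, and was 0.80 without WT replicate 1. Gstp1 is the gene whose promoter letters sit closest to the start among the matches upstream of it.

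Sqstm1 encodes p62, the autophagy receptor that also sequesters KEAP1 (chromosome 10, 35680657 to 35716294). It was at 409 and 499 RPKM in Kcnh2-/-, against 159 and 191 RPKM in WT. This was the gene with the clearest separation: replicates of a genotype differed by ratios of 1.22 in Kcnh2-/- and 1.20 in WT, while the lower Kcnh2-/- library was at 2.14 times the higher WT library. The log2 difference was 1.37 ± 0.29 (SE), almost the same within replicate 1 (1.36) and replicate 2 (1.38), and it was 1.24 without WT replicate 1. The listed locus is shared with RGD1564036, which was at 5.12 and 8.03 RPKM in Kcnh2-/- and 5.69 and 7.13 RPKM in WT; how reads of overlapping genes were divided is not stated.

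The subunits of glutamate-cysteine ligase, the rate-limiting enzyme of glutathione synthesis, are encoded on different chromosomes. The catalytic subunit gene Gclc (chromosome 8, 85059050 to 85097468) was at 90.0 and 91.5 RPKM in Kcnh2-/-, against 40.7 and 63.6 RPKM in WT. Its groups did not overlap, and the Kcnh2-/- replicates were nearly equal. The modifier subunit gene Gclm (chromosome 2, 225827503 to 225847874) was at 151 and 244 RPKM in Kcnh2-/-, against 55.9 and 154 RPKM in WT. Here the groups overlapped, because Kcnh2-/- replicate 1 and WT replicate 2 were level at a ratio of 0.979. The log2 difference was 0.82 ± 0.31 (SE) for Gclc, with 1.12 and 0.52 within replicates 1 and 2. For Gclm it was 1.04 ± 0.58 (SE), with 1.42 and 0.66 within replicates 1 and 2. Without WT replicate 1 the log2 difference was 0.51 for Gclc and 0.31 for Gclm.

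Slc7a11 encodes the light chain of the cystine importer that supplies cysteine for glutathione (chromosome 2, 139453773 to 139528162). It was the lowest of the 10 genes and did not pass the filter, at 0.799 and 0.340 RPKM in Kcnh2-/- against 0.166 and 0.107 RPKM in WT. Both Kcnh2-/- libraries were above both WT libraries, at levels where read depth is unknown and few reads may stand behind a value. It was also the 1 member in which replicate 2 was below replicate 1 in both genotypes. Its partner chain gene Slc3a2, in the list of ATF4 targets and cystine transport, was well expressed, at 85.3 and 123 RPKM in Kcnh2-/- and 69.0 and 102 RPKM in WT, and was chosen for mention after its values were seen.

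The thioredoxin branch is represented by Txnrd1 and Srxn1. Txnrd1, the cytosolic selenoprotein that reduces thioredoxin (chromosome 7, 26946124 to 26984400), was at 372 and 418 RPKM in Kcnh2-/-, against 151 and 303 RPKM in WT. The groups did not overlap, and the log2 difference was 0.88 ± 0.43 (SE), with 1.30 within replicate 1 and 0.46 within replicate 2. Srxn1 encodes sulfiredoxin, which restores overoxidised peroxiredoxins (chromosome 3, 147609094 to 147632801), and was at 13.6 and 28.1 RPKM in Kcnh2-/-, against 1.91 and 17.6 RPKM in WT. WT replicate 1 stood at 14.0% of the next lowest library, and Kcnh2-/- replicate 1 was below WT replicate 2, so the groups overlapped. The log2 difference of Srxn1 was 1.49 ± 0.98 (SE), with 2.33 within replicate 1 and 0.65 within replicate 2, and no other member moved more when WT replicate 1 was left out (0.15). Without that library Txnrd1 stood at 0.38.

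Hmox1 encodes inducible haem oxygenase, which releases iron, carbon monoxide and biliverdin from haem (chromosome 19, 14508615 to 14515456). It was at 201 and 291 RPKM in Kcnh2-/-, against 69.0 and 188 RPKM in WT. The groups did not overlap, though Kcnh2-/- replicate 1 and WT replicate 2 were close, at a ratio of 1.07. The log2 difference was 1.08 ± 0.56 (SE), with 1.53 within replicate 1 and 0.63 within replicate 2, and 0.36 without WT replicate 1. Hmox2, the constitutive haem oxygenase gene, was at 29.4 and 23.9 RPKM in Kcnh2-/- and 32.1 and 22.7 RPKM in WT, and was likewise chosen after its values were seen.

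Nfe2l2, the gene for NRF2 itself (chromosome 3, 62497570 to 62524996), was at 48.9 and 75.6 RPKM in Kcnh2-/-, against 32.5 and 93.3 RPKM in WT. WT replicates were the lowest and the highest of the 4 libraries, so the genotypes overlapped fully. The means were 62.2 ± 18.9 RPKM in Kcnh2-/- and 62.9 ± 42.9 RPKM in WT (SD, n = 2 each). The log2 difference was 0.14 ± 0.58 (SE), with 0.57 within replicate 1 and -0.30 within replicate 2, and its sign turned to -0.61 without WT replicate 1 and to -0.17 without Kcnh2-/- replicate 2. RNA levels do not measure NRF2 protein, whose amount is set largely by degradation.

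**Figure D2:**
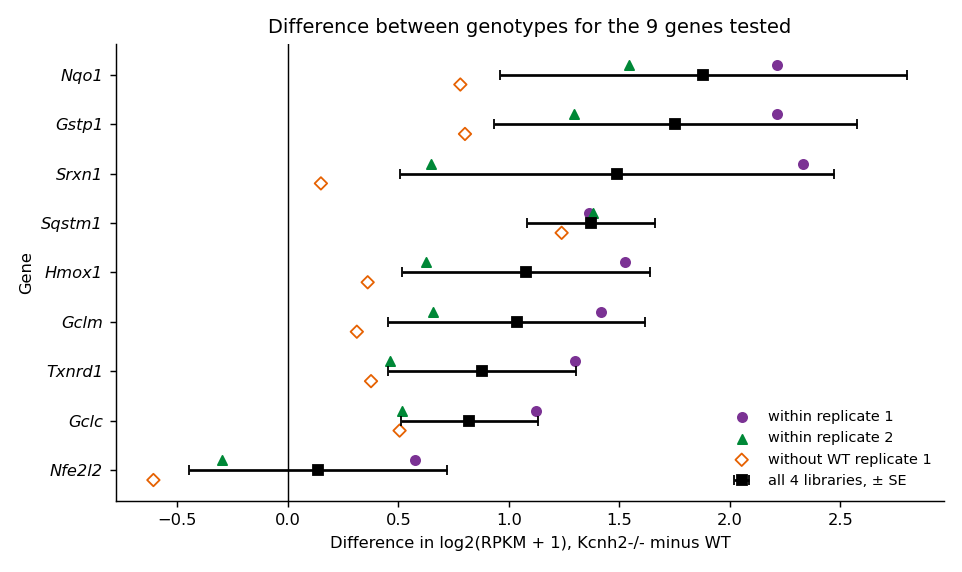
Difference in log2(RPKM + 1), Kcnh2-/- minus WT, for the 9 genes tested: squares with bars are the fit over all 4 libraries ± SE, circles and triangles the differences within replicates 1 and 2, and open diamonds the fit without WT replicate 1. Sqstm1 keeps all its points between 1.24 and 1.38, Nfe2l2 lies on both sides of 0, and the other 7 have larger differences within replicate 1 than within replicate 2.

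The 10 genes lie on 7 chromosomes, with none on X or Y. Nfe2l2 and Srxn1 are both on chromosome 3, where the median difference over 804 protein-coding genes was -0.0008 within replicate 1 and -0.33 within replicate 2, the third lowest of 20 autosomes within replicate 2. Over all autosomes the medians were -0.0212 within replicate 1 and 0.0128 within replicate 2. The part of this shift in the values of Nfe2l2 and Srxn1 was not tested. The other chromosomes that hold members had medians from -0.107 to 0.116 within either number.

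The members also varied together between libraries of 1 genotype. This contrast shares its libraries with the difference between genotypes known at their choice, so it is not independent of that choice. In 9 of the 10 genes replicate 2 was above replicate 1 in both WT and Kcnh2-/-, with Slc7a11, which did not pass the filter, the exception; over all genes tested 39.5% had that pattern. In Kcnh2-/-, the median of replicate 2 minus replicate 1 over the 9 genes tested was 0.62 on the log2(RPKM + 1) scale, beside 0.0865 over all genes. In WT that median was 1.45, beside 0.0710 over all genes. The spread between WT libraries was thus larger than the median difference between genotypes of 1.08. The median of Kcnh2-/- replicate 1 minus WT replicate 2 was 0.0963 over the same 9 genes, smaller than either median between replicates. Gains and losses cancel in such a median, so it is not a distance. By ratios, Kcnh2-/- replicate 1 was nearer to WT replicate 2 than to Kcnh2-/- replicate 2 in Nqo1, Gstp1, Gclm, Srxn1 and Hmox1. The reverse held in Sqstm1, Gclc, Txnrd1 and Nfe2l2. By genotype within a number, 9 of the 10 genes were higher in Kcnh2-/- in both numbers, with Nfe2l2 the exception; of the genes that passed the filter this held for 8 of the 9 members and 30.8% of all. The member medians were 1.42 within replicate 1 and 0.65 within replicate 2, beside 0.0072 and 0.0266 over all genes.

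Cell type markers moved with the same libraries. Pou5f1, the core pluripotency factor gene, was at 1043 and 1679 RPKM in Kcnh2-/-, against 273 and 1203 RPKM in WT, so WT replicate 1 was lowest, as it was for 8 of the 9 pluripotency markers found (of 10 listed). The markers of that list summed to 1456 and 2680 RPKM in Kcnh2-/- and to 387.5 and 1805 RPKM in WT, and none was at 0 in any library. Mesoderm and cardiomyocyte markers (12 of 12 found) summed to 80.9 and 9.57 RPKM in Kcnh2-/- and to 698 and 48.9 RPKM in WT, with the highest value in WT replicate 1 for 10 of the 12. Of these, Mixl1, Tbx6, Nkx2-5 and Myh6 were under 1 RPKM in every library. Actc1 and Tnnc1 held most of the sum in WT replicate 1, at 310 and 349 RPKM.

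Definitive endoderm markers (8 of 8 found) summed to 62.6 and 19.5 RPKM in Kcnh2-/- and to 197 and 69.7 RPKM in WT. Extraembryonic endoderm markers (10 of 10 found) summed to 22.1 and 29.9 RPKM in Kcnh2-/- and 52.6 and 23.1 RPKM in WT, with Afp, Sox7, Cubn and Apoa1 under 1 RPKM throughout. Trophoblast markers (8 of 8 found), led by the keratin gene Krt8, summed to 810 and 340 RPKM in Kcnh2-/- and 1897 and 439 RPKM in WT. Krt8 alone was at 531 and 53.1 RPKM in Kcnh2-/- and 1567 and 175 RPKM in WT, and 3 of the 8 trophoblast markers were instead lowest in WT replicate 1, among them Tfap2c at 13.9 and 20.4 RPKM in Kcnh2-/- and 2.26 and 20.9 RPKM in WT. The sums of all 3 lists were highest in WT replicate 1. Of the endoderm markers, Eomes and Apoa2 were instead lowest in that library. Apoa2 was at 12.8 and 23.45 RPKM in Kcnh2-/- and 2.10 and 14.7 RPKM in WT.

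Fibroblast and feeder markers (6 of 7 found) summed to 38.5 and 2.34 RPKM in Kcnh2-/- and 173 and 5.16 RPKM in WT, mostly from the intermediate filament gene Vim, and Thy1 was under 1 RPKM in every library. Neural markers (5 of 6 found) summed to 22.4 and 17.9 RPKM in Kcnh2-/- and 52.6 and 13.5 RPKM in WT, with Otx2 listed at 0 in all 4 libraries and Pax6 and Zic1 under 1 RPKM. Blood and endothelial markers (5 of 7 found) summed to 2.73 and 2.68 RPKM in Kcnh2-/- and 7.62 and 0.317 RPKM in WT, with Ptprc under 1 RPKM throughout. Most of the Kcnh2-/- sums was Gata1, an erythroid transcription factor gene, at 2.11 and 2.59 RPKM in Kcnh2-/- and 0.153 and 0.186 RPKM in WT, while Hba-a1, Tal1 and Cdh5 were highest in WT replicate 1. The low NRF2 target values of WT replicate 1 thus stood beside a low pluripotency sum and high mesoderm and endoderm sums in that library. Its trophoblast sum of 1897 RPKM was also high, but came mostly from the keratin genes Krt8 (1567 RPKM) and Krt18 (314 RPKM). Of the 8 trophoblast markers, 5 were highest and 3 lowest in that library, so that sum does not describe the list as a whole. Single markers did not all follow these sums: Sox2 was at 18.1 and 43.8 RPKM in Kcnh2-/- and 33.9 and 47.8 RPKM in WT. The part of these markers in the differences of the NRF2 target genes was not tested. In bulk RNA fewer cells of a type cannot be told apart from less RNA per cell.

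**Figure D3:**
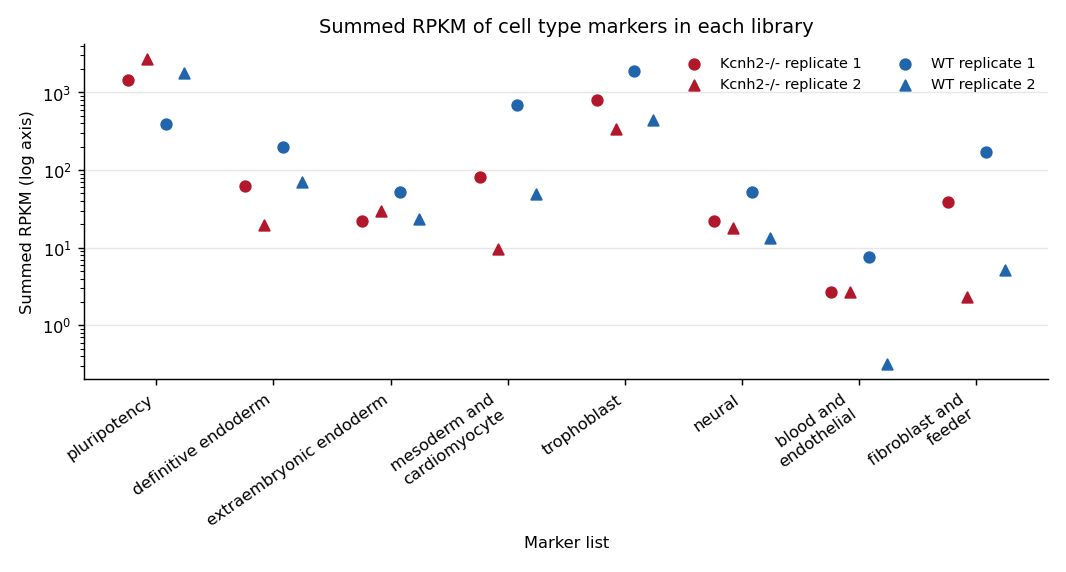
Summed RPKM (log axis) of the markers found in each of 8 cell type lists, by library, with Kcnh2-/- in red to the left of WT in blue, circles for replicate 1 and triangles for replicate 2. WT replicate 1 is lowest for pluripotency (387.5 RPKM) and highest for each of the other 7 lists.

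Beyond the members, related genes were examined in lists drawn up with earlier results of these data known, and some genes are in more than 1 list. Among other NRF2 target genes, 23 of 24 symbols were found and 20 were tested. None passed the limma threshold and 1 had an unadjusted p under 0.05. By sign alone 17 of the 20 were higher in Kcnh2-/-, where 50.4% of all genes tested were. That share also stands beside the counts by sign of each list below. Their median log2 difference was 0.31, beside 0.0052 over all genes, and it was -0.0736 without WT replicate 1, 0.79 without WT replicate 2 and 0.55 without Kcnh2-/- replicate 1. In 5 of the 20 the Kcnh2-/- libraries were both above the WT libraries, where 16.7% of all genes tested were.

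Those 5 included Ugdh, which makes the UDP-glucuronate used to conjugate toxins, at 178 and 200 RPKM in Kcnh2-/- against 101 and 115 RPKM in WT. The difference of Ugdh was 0.80 ± 0.25 on the log2 scale (SE), with a limma adjusted p of 0.980. The biliverdin reductase gene Blvrb was at 42.3 and 74.2 RPKM in Kcnh2-/- against 23.9 and 34.6 RPKM in WT, a log2 difference of 0.94 ± 0.39. The glutathione reductase gene Gsr was at 269 and 340 RPKM in Kcnh2-/- against 116 and 227 RPKM in WT, a log2 difference of 0.89 ± 0.42. Prdx1, a peroxiredoxin gene, was at 2542 and 2799 RPKM in Kcnh2-/- against 1448 and 1797 RPKM in WT. The thioredoxin gene Txn1 overlapped between genotypes, at 1098 and 2164 RPKM in Kcnh2-/- against 839 and 1553 RPKM in WT.

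The regulators and partners of NRF2 had a small median difference between genotypes. All 15 were found and tested, 10 were higher and 5 lower in Kcnh2-/- by sign, and their median log2 difference was 0.13, turning to -0.0975 without WT replicate 1 and -0.13 without Kcnh2-/- replicate 2, and 0.28 without Kcnh2-/- replicate 1. None passed the limma threshold and 1, Maff, had an unadjusted p under 0.05. Maff encodes a small MAF protein and was at 53.7 and 80.5 RPKM in Kcnh2-/- against 23.9 and 37.3 RPKM in WT, a difference of 1.11 ± 0.36 on the log2 scale (SE) with a limma adjusted p of 0.980, nearly equal within replicate 1 (1.14) and replicate 2 (1.09). Pgam5, a mitochondrial phosphatase gene whose protein binds KEAP1, was at 96.4 and 119 RPKM in Kcnh2-/- against 65.0 and 91.5 RPKM in WT. Gsk3b, a kinase gene of a KEAP1-independent route of NRF2 degradation, was at 6.86 and 10.96 RPKM in Kcnh2-/- against 9.79 and 19.3 RPKM in WT, with groups that overlapped. The ubiquitin ligase RING subunit gene Rbx1 was at 567 and 1589 RPKM in Kcnh2-/- against 549 and 953 RPKM in WT. Keap1, chosen for mention after its values were seen, was at 15.9 and 16.4 RPKM in Kcnh2-/- and 15.2 and 8.90 RPKM in WT.

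Glutathione enzymes (16 tested of 17) had a median log2 difference of 0.11 (0.21 to 0.37 without Kcnh2-/- replicate 1, Kcnh2-/- replicate 2 or WT replicate 1, 0.0640 with no filter and 0.32 with a filter at 5 RPKM), with 10 higher and 6 lower in Kcnh2-/- by sign, no limma call and no unadjusted p under 0.05. The monothiol glutaredoxin gene Glrx3 was at 387 and 401 RPKM in Kcnh2-/- against 259 and 216 RPKM in WT. Chac2, a glutathione-degrading enzyme gene, was at 15.4 and 11.7 RPKM in Kcnh2-/- against 10.4 and 7.60 RPKM in WT. The glutathione peroxidase gene Gpx4 was at 417 and 1017 RPKM in Kcnh2-/- against 330 and 583 RPKM in WT, and Gpx1 at 304 and 505 RPKM in Kcnh2-/- against 280 and 442 RPKM in WT, both with overlapping groups.

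No other glutathione S-transferase tested reached the level of Gstp1. Of 19 found, 12 were tested, with a median log2 difference of 0.39 (0.11 without Kcnh2-/- replicate 2, 0.25 with a pseudocount of 5 and 0.0199 with no filter on low values), no limma call and no unadjusted p under 0.05. Gsta4, an alpha-class member, was at 36.0 and 42.3 RPKM in Kcnh2-/- against 89.1 and 9.19 RPKM in WT, so its order among libraries was opposite to that of Gstp1 in replicate 1. The microsomal gene Mgst3 was at 26.5 and 48.1 RPKM in Kcnh2-/- against 34.9 and 56.4 RPKM in WT. Mgst1 was at 5.97 and 4.78 RPKM in Kcnh2-/- against 1.92 and 3.91 RPKM in WT, Gstt1 at 1.30 and 1.87 RPKM in Kcnh2-/- against 0.170 and 0.758 RPKM in WT, and Gstm7 at 6.17 and 20.2 RPKM in Kcnh2-/- against 3.73 and 6.96 RPKM in WT. The Gstm genes are close paralogs and Gstm7 shares its locus with Gstm3, Gstm6 and Gstm6l, so its value is uncertain.

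In the thioredoxin and peroxiredoxin system (14 tested of 15) the median log2 difference was 0.36, which was 0.0374 under quantile normalization, 0.0862 without WT replicate 1, 0.0174 without Kcnh2-/- replicate 2 and 0.58 without Kcnh2-/- replicate 1, with no limma call and no unadjusted p under 0.05. The endoplasmic reticulum peroxiredoxin gene Prdx4, which is X-linked, was at 263 and 243 RPKM in Kcnh2-/- against 174 and 95.7 RPKM in WT. The mitochondrial superoxide dismutase gene Sod2 was at 40.4 and 50.6 RPKM in Kcnh2-/- against 29.2 and 36.9 RPKM in WT.

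Haem and iron genes (14 tested) split evenly, with 7 higher and 7 lower by sign, a median of 0.0309 (0.0985 to 0.19 with 1 library left out, 0.20 with a filter at 5 RPKM and 0.0095 under quantile normalization), no limma call and no unadjusted p under 0.05. The ferritin heavy chain gene Fth1 was at 392 and 913 RPKM in Kcnh2-/- against 145 and 665 RPKM in WT, an order of libraries like that of Srxn1, and the light chain gene Ftl1 was at 960 and 1136 RPKM in Kcnh2-/- against 575 and 1196 RPKM in WT. Both overlapped between genotypes. Both listed loci are shared with other genes, Best1 and AABR07006255.1 for Fth1 and AC120071.1 for Ftl1. The Ftl1 locus is short (chromosome 5, 152325870 to 152326778), so its value is uncertain. The haem exporter gene Flvcr1 was at 23.4 and 25.2 RPKM in Kcnh2-/- against 12.6 and 22.6 RPKM in WT, and the haem transporter gene Slc48a1 at 25.7 and 24.2 RPKM in Kcnh2-/- against 18.5 and 20.5 RPKM in WT.

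ATF4 also drives Slc7a11 and other amino acid supply genes in mammalian cells. Of the ATF4 targets and cystine transport list 15 of 16 were found and tested, with 12 higher by sign, a median of 0.35 that was 0.0243 without WT replicate 1, 0.68 without WT replicate 2, 0.20 without Kcnh2-/- replicate 2 and 0.21 under quantile normalization, no limma call and 1 unadjusted p under 0.05. That gene was Psat1, of serine synthesis, at 229 and 184 RPKM in Kcnh2-/- against 122 and 108 RPKM in WT. Cbs, of cysteine synthesis, was at 5.07 and 6.48 RPKM in Kcnh2-/- against 1.01 and 3.81 RPKM in WT. The pseudokinase gene Trib3 was at 12.4 and 19.6 RPKM in Kcnh2-/- against 8.13 and 11.5 RPKM in WT. Atf4 itself was at 261 and 357 RPKM in Kcnh2-/- against 260 and 300 RPKM in WT, a log2 difference of 0.13 ± 0.31 (SE).

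Autophagy receptors and ATG8 genes, which act with p62 in selective autophagy, lay on both sides of 0. Of 14 tested, 6 were higher and 8 lower in Kcnh2-/- by sign, the median was -0.0943 (0.12 without WT replicate 1, 0.0505 without Kcnh2-/- replicate 1 and -0.27 without WT replicate 2), none passed the limma threshold and none had an unadjusted p under 0.05. The kinase gene Ulk1, which starts autophagy, was at 1.33 and 2.30 RPKM in Kcnh2-/- against 2.34 and 3.88 RPKM in WT. The receptor gene Tax1bp1 was at 74.3 and 108 RPKM in Kcnh2-/- against 75.4 and 68.5 RPKM in WT, Calcoco2 at 0.807 and 3.07 RPKM in Kcnh2-/- against 0.0858 and 1.44 RPKM in WT, and the ATG8 gene Gabarap at 91.4 and 139 RPKM in Kcnh2-/- against 141 and 119 RPKM in WT. The listed locus of Calcoco2 is short (chromosome 16, 51786458 to 51787151), so its value is uncertain.

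**Figure D4:**
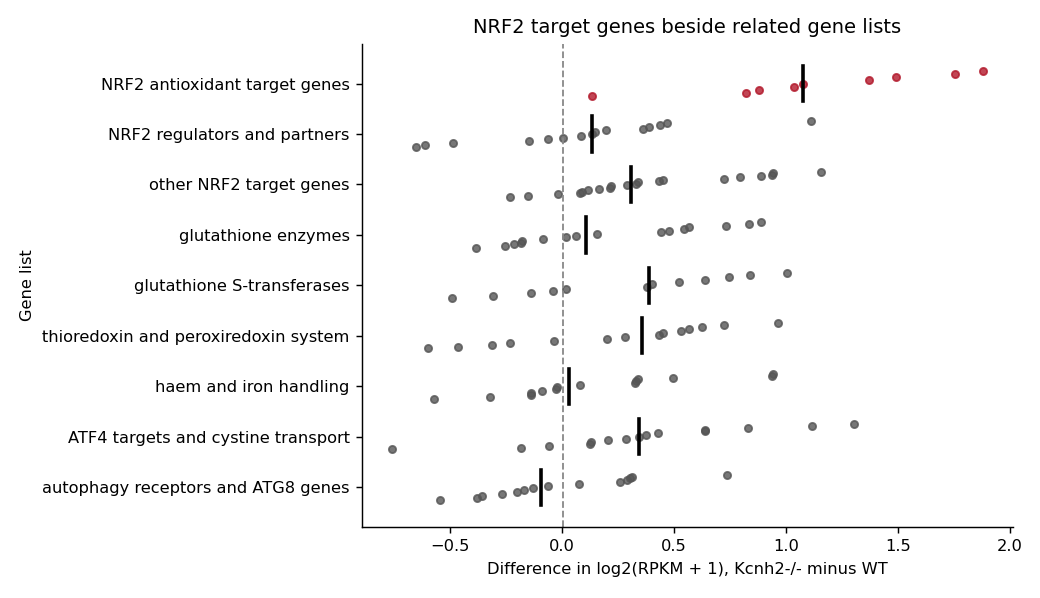
Difference in log2(RPKM + 1), Kcnh2-/- minus WT, for each gene tested in the NRF2 target genes (red) and 8 related lists (grey), with black bars at the list medians and a dashed line at the median of all genes tested. The NRF2 target median is 1.08 and the other medians lie between -0.0943 and 0.39.

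The genes whose pattern over the 4 libraries was most like that of Sqstm1, the member of smallest limma p, were Lsp1, Hccs, Snurf, Pola1 and Pfkp, with Euclidean distances of 0.0652 to 0.232 between mean-centred log2(RPKM + 1) values among 8008 protein-coding genes that averaged at least 5 RPKM. Lsp1 was at 7.51 and 8.87 RPKM in Kcnh2-/- against 2.34 and 2.96 RPKM in WT, and Pfkp, which encodes a phosphofructokinase of glycolysis, was at 149 and 185 RPKM in Kcnh2-/- against 66.9 and 83.5 RPKM in WT. The nearest fellow members were Gclc, at rank 75 of the 8008, and Txnrd1, at rank 128, while Nqo1 was at rank 5722 and Srxn1 at 6157. Among the members compared, Srxn1 was thus the farthest from Sqstm1, with Nqo1 nearly as far (distances of 1.78 and 1.70). In Sqstm1 the genotypes separated and replicates were close, while in Srxn1 WT replicate 1 was far below the rest. Distances were taken from Sqstm1 only, and none was measured between other members. With 4 libraries such distances describe these samples only.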

How the data were processed

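Ribosomal RNA was removed from total RNA, and stranded libraries were read as 100 bp pairs, per the labels' protocols. TopHat2 2.0.13, Cufflinks 2.2.1 and the rn6 build are named in the submitters' processing notes; the annotation and strand setting are not stated there. The values are RPKM as deposited by the authors, 1 table per library, with loci printed as listed (the files do not say whether starts count from 0 or 1).

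Differences were fitted with limma 3.58.1 in R 4.3.3 (two-sided moderated test, prior variance following the mean) on log2(RPKM + 1) over 12355 genes that reached 1 RPKM in 2 or more libraries, with Benjamini-Hochberg adjustment over all of them and a threshold of 0.05. No replicate term was used. Protein-coding status came from a RefSeq table (GRCr8) matched on symbols and synonyms (19341 of 32753 matched). All 10 members are named. From each pathway list the 3 genes of smallest p and the 2 of highest mean are named, with the 5 genes nearest to Sqstm1 in pattern. Single markers and any other genes were picked for mention after their values were seen. The members and lists were chosen with earlier results of these data known. In all, 14 alternatives were run. Tables used pandas 2.3.3 and numpy 2.4.6 in Python 3.11.15, and plots matplotlib 3.10.9.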

Additional observations from a re-analysis of the deposited data

How the results depend on the processing

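The log2 differences of the 9 NRF2 target genes tested were recomputed under 14 alternatives, 126 values in all: 121 kept their sign and their side of the threshold, 3 passed it, and 2 reversed. Changes to the filter, the variance trend, the restriction to protein-coding genes and the replicate block cannot alter a gene's log2 difference here. Under those alternatives only the SE and p-value could move, so an unchanged sign there is no sign of stability. The reversals were both of Nfe2l2, which was 0.14 as fitted, -0.17 without Kcnh2-/- replicate 2 and -0.61 without WT replicate 1; the cause was not tested. Leaving out 1 library in turn moved Nqo1 between 0.78 and 2.98, Gstp1 between 0.80 and 2.70, Srxn1 between 0.15 and 2.83, Sqstm1 between 1.23 and 1.51 and Nfe2l2 between -0.61 and 0.88, with the lowest value without WT replicate 1 for Nqo1, Gstp1 and Srxn1 and without Kcnh2-/- replicate 2 for Sqstm1. Under quantile normalization the median of the 9 was 0.87.

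Same-numbered libraries deviated together (r = 0.381 across 12355 genes, which are not independent replicates), but 2 pairs are too few to show that the numbers pair the libraries. With the replicate block limma called 0 of the 9 genes, and 14 genes higher and 14 lower over all. With the replicate block and protein-coding genes only it called 3 of the 9, Nqo1 (adjusted p = 0.0152), Gstp1 (0.0259) and Sqstm1 (0.0291), all higher in Kcnh2-/-, and 57 genes higher and 25 lower among 10850. With 4 libraries the block leaves little information on each gene's own spread, so these p-values rest mostly on the spread shared across genes. The counts over all genes, 4 higher and 10 lower as fitted, were 0 and 3 with protein-coding genes only and no block, 7 higher with a pseudocount of 0.1, 0 and 3 with a pseudocount of 5, 0 and 1 with no filter, 0 and 3 without the variance trend, 1 higher with median-of-ratios scaling and 8 higher with quantile normalization. Leaving out 1 library in turn gave 0 higher in each case and 0 to 15 lower, with 0 lower without WT replicate 1 and without WT replicate 2. With 1 library left in an arm, the fit takes its spread from the other genotype. Read depth is unknown, so the precision of low genes such as Slc7a11 cannot be stated.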
